A study of Rattus norvegicus with 9 samples.

Results

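NRF2, encoded by Nfe2l2, is the transcription factor through which cells raise their antioxidant and detoxifying enzymes. In unstressed cells KEAP1 hands NRF2 to a CUL3 ubiquitin ligase, which marks it for degradation, and oxidants or electrophiles that modify KEAP1 let NRF2 accumulate. NRF2 then pairs with a small MAF protein and binds antioxidant response elements (ARE) at its target genes, whereas BACH1 occupies the same elements as a repressor. Pancreatic beta cells are known for low levels of several antioxidant enzymes. The 9 genes described here are Nfe2l2, its inhibitor Keap1 and the commonly used targets Gclc, Gclm, Gsr, Txnrd1, Srxn1, Nqo1 and Hmox1. They were chosen by name as textbook members of the pathway, out of 20645 genes in the table, and all 9 had a row.

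The levels come from RNA sequencing of INS-1E cells, a rat insulinoma line used as a model of the beta cell. Cells received bovine serum albumin alone as the vehicle (BSA, n = 3), 0.5 mM palmitic acid, a saturated fatty acid carried on albumin (PA, n = 3), or 0.5 mM PA with 50 µM cyanidin-3-O-glucoside, a plant anthocyanin (PA + C3G, n = 3), each for 24 h. A group with C3G alone was not analysed here, and the culture medium of all groups contained 2-mercaptoethanol, a thiol. The study asked how C3G bears on the response of these cells to PA.

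Each library summed to between 45559993 and 66730721 estimated counts. Levels are given as FPKM, fragments scaled to transcript length and to the fragments mapped in the library, which is per length and so allows genes to be set side by side. Libraries of one group correlated with each other at 0.981 to 0.985 (Pearson's r of log2(FPKM + 1) across genes, which are not independent replicates), and libraries of different groups at 0.943 to 0.977. All 8 beta cell markers were present, at 44.3 to 36222 FPKM, and their summed level was 45506 to 46240 FPKM in BSA, 19083 to 19689 in PA and 41935 to 47737 in PA + C3G. Most of that sum was insulin, with Ins1 at 26650, 13744 and 32002 FPKM and Ins2 at 13778, 1871 and 7008 in BSA, PA and PA + C3G (means, n = 3). Of the 8, 7 were called lower in PA than in BSA, beside 25.2% of all genes tested, and Nkx6-1 was not (50.0 and 52.1 FPKM). Relative to PA, 7 were called higher in PA + C3G, beside 11.1% of all genes tested, and Slc30a8 was not. In PA + C3G the markers differed in where they stood relative to BSA, with log2 fold changes of 0.33 for Ins1, −0.91 for Ins2, −1.51 for Slc2a2 and 0.66 for Nkx6-1, each called. Of the markers of other cells, the 2 of 3 immune genes with a row reached at most 0.674 FPKM, the 2 of 3 fibroblast genes at most 3.52, the 3 of 4 exocrine genes at most 0.177 and the 2 of 4 genes of other islet cells at most 31.2 (Gcg). Gcg was lower in PA than in BSA (log2 fold change −2.50, edgeR adjusted p = 0.0149) and Pdgfra, a fibroblast marker, higher (0.48, adjusted p = 0.00418). The part of these marker differences in the results for other genes was not tested, and group differences were taken from edgeR's quasi-likelihood test on the counts with TMM scaling, in which a call is a Benjamini-Hochberg adjusted p under 0.05. In bulk RNA, fewer cells that express a gene and less of its RNA per cell cannot be told apart. The study's methods describe 3 replicate samples per group and state in general that experiments were run in biological triplicate, and the labels do not say whether these libraries came from separate cultures. If they did not, the p-values measure only the spread between these samples, which may be technical.

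The promoter sequences of the members are shown first because NRF2 acts through short elements in them. RefSeq windows on GRCr8, from 250 bases before to 50 bases after a gene start, were at hand for 7 of the 9 members, with 8 windows in all since Txnrd1 had 2. Hmox1 and Gsr were without an entry. Both strands were searched for the ARE core TGACNNNGC. It stood in 1 window each of 3 members, Gclm, Txnrd1 and Nfe2l2, against 12.1% of the 33469 windows of this length (4038 windows). The related AP-1 letters TGANTCA, which read alike on both strands and can overlap the core, stood in the Srxn1 window at 2 positions and in 7.33% of all windows (2453 windows). The stretches around these letters, 5′ to 3′ on the gene's strand with the matched letters in capitals, are as follows.
Gclm, chr2:213031938-213031996, + strand, core on the opposite strand starting 172 bases before the gene start: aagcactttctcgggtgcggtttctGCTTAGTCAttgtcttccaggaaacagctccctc
Txnrd1, chr7:22755949-22756007, − strand, core on the opposite strand starting 78 bases before the gene start: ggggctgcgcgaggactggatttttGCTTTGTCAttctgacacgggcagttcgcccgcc
Nfe2l2, chr3:81028950-81028979, − strand, core starting at base 39 after the gene start: actgctccgactagccatTGACGCCGCctc
Srxn1, chr3:161064725-161064838, + strand, AP-1 letters starting 62 and 5 bases before the gene start: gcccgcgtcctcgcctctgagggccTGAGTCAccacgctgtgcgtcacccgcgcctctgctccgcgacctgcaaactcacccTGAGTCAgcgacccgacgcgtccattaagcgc
Neither set of letters was found in the windows of Keap1, Gclc and Nqo1 or in the other Txnrd1 window. A match is a description of the letters and not of binding, and the known elements of some of these genes lie farther from the start than these windows reach. Looser forms of the ARE were not searched, so a window without the core may still hold one. In Srxn1 the AP-1 letters nearer the gene start, read with the letters after them, are TGAGTCAgc. They differ from the core only by G in place of C, and whether they act as an ARE was not tested.

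PA raised Keap1 by 1.34-fold, Gclc by 1.35-fold and Nqo1 by 1.81-fold relative to BSA, and lowered Txnrd1 to 0.863 times its BSA level. The other 5 members, Nfe2l2 itself among them, did not pass the test. The 4 calls among 9 members (44.4%) stood beside a background in which 51% of the 12958 genes tested were called, 25.8% higher and 25.2% lower. The median log2 fold change of the members was 0.16, from −0.21 to 0.86, against 0.0030 over all genes tested. With C3G added to PA, Keap1 and Gclc fell, to 0.867 and 0.806 times their PA levels, and no member rose. These 2 calls of 9 (22.2%) stood beside 21.2% of all genes, of which 11.1% were higher and 10.2% lower, and the median log2 fold change was −0.13, from −0.31 to 0.02, against −0.00073 over all genes. The near-even background split depended on the scaling, with 775 genes higher and 2525 lower under equal FPKM sums, where 3 members were called, all lower. Under limma (pseudocount 1) it was 1065 against 1636, compared with 1436 against 1316 with TMM. The falls of Keap1 and Gclc with C3G missed the threshold in some fits that left out 1 library, as given beside each gene.

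**Figure D1:**
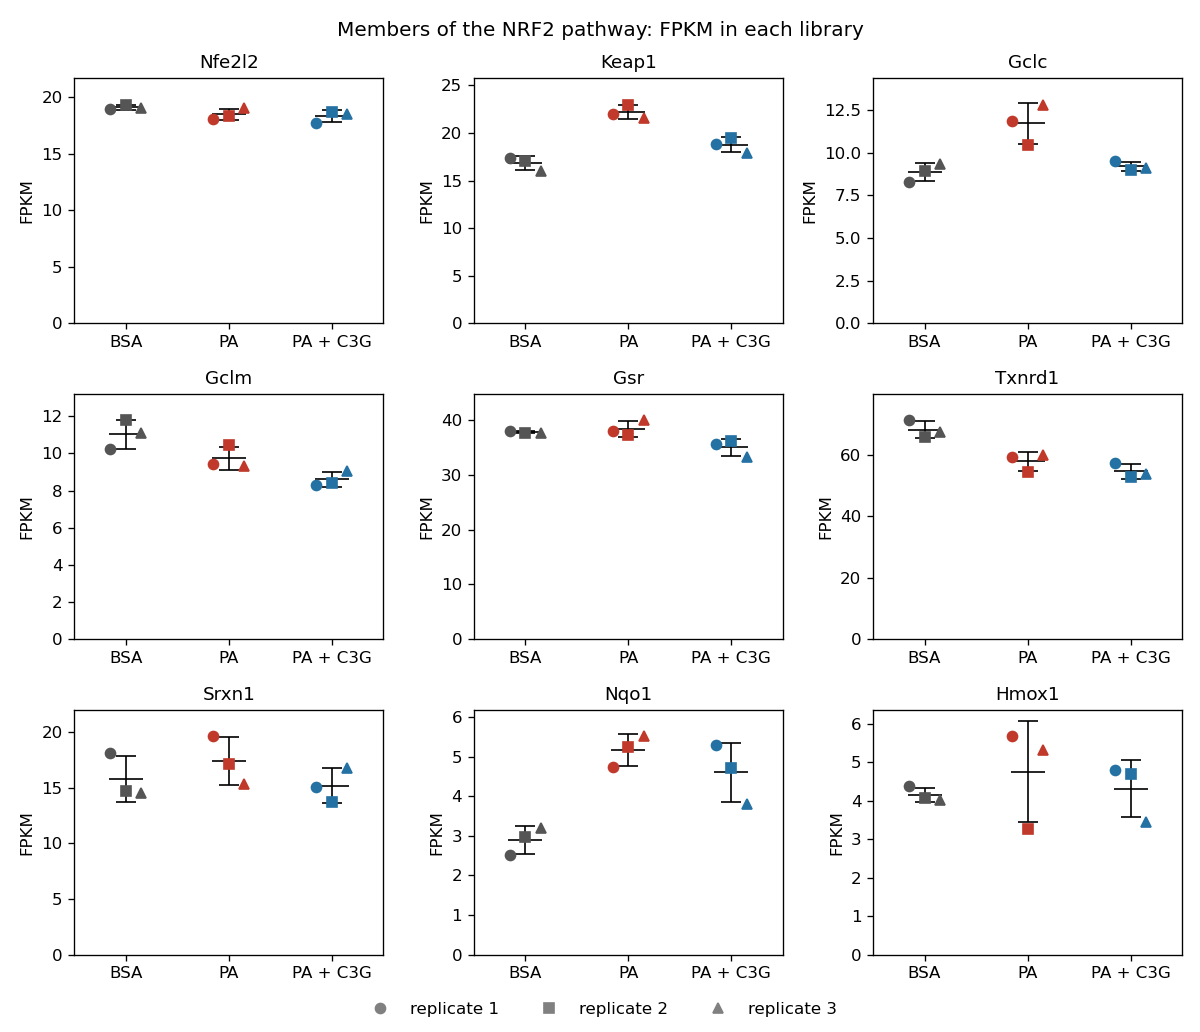
FPKM of the 9 members (vertical axes, each starting at 0) in every library of the BSA, PA and PA + C3G groups, with the symbol giving the replicate and the bars the mean ± SD (n = 3). Keap1, Gclc and Nqo1 have all PA libraries above all BSA libraries, Txnrd1 has them below, and the Nfe2l2 libraries lie between 17.7 and 19.3.

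Nfe2l2 (ENSRNOG00000001548, chromosome 3, 62497571 to 62524996, − strand in the authors' table, whose genome build is not given in the sources used here) was level across the groups. Its FPKM was 18.9, 19.3 and 19.0 in BSA, 18.1, 18.3 and 19.0 in PA, and 17.7, 18.7 and 18.5 in PA + C3G. The PA + C3G libraries lay below the BSA libraries on this scale, but their TMM factors were lower (0.973 to 0.980 against 1.02), and after TMM scaling the means were 18.7 ± 0.23 in BSA, 18.4 ± 0.45 in PA and 18.7 ± 0.51 in PA + C3G (SD, n = 3). PA and BSA differed by a log2 fold change of −0.02 (SE 0.04, adjusted p = 0.687) with a 95% interval of −0.12 to 0.07. It was 0.02 for PA + C3G versus PA (SE 0.04, adjusted p = 0.758) with an interval of −0.07 to 0.12. With 2023 to 2995 counts per library, Nfe2l2 had, with Gsr, the smallest SE of the members, and its RNA level says nothing of NRF2 protein, which is set by degradation.

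Keap1 (ENSRNOG00000020878, chromosome 8, 22250518 to 22259779, − strand), the adaptor that delivers NRF2 to the CUL3 ligase, rose with PA and fell with C3G. Its FPKM was 17.4, 17.1 and 16.0 in BSA, 22.0, 23.0 and 21.6 in PA, and 18.8, 19.5 and 17.9 in PA + C3G. The 3 groups did not overlap, with PA + C3G between the other 2. On the log2 scale Keap1 rose by 0.42 for PA versus BSA (SE 0.05, adjusted p = 9.2e-05), and in all 19 alternative fits it passed the threshold. For PA + C3G versus PA it was −0.21 (SE 0.05, adjusted p = 0.0198), and relative to BSA the level with PA + C3G was still higher, by 0.22 (SE 0.05, adjusted p = 0.00842). The fall with C3G lost its call without PA replicate 2 (−0.18) or without PA + C3G replicate 1 (−0.21) or 3 (−0.18), where the adjusted p reached 0.0682 at most.

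Because KEAP1 acts on NRF2, the ratio of their FPKM within each library was also taken, a measure added after the levels had been seen. Keap1 over Nfe2l2 was 0.920, 0.885 and 0.840 in BSA, 1.22, 1.25 and 1.13 in PA, and 1.07, 1.04 and 0.970 in PA + C3G. The mean ratio thus was 0.882 ± 0.040 in BSA, 1.20 ± 0.062 in PA and 1.03 ± 0.050 in PA + C3G (SD, n = 3), with no overlap between groups. Each of the 3 comparisons gave a two-sided exact permutation p of 0.1, the smallest that 3 against 3 libraries allow (adjusted p = 0.12 over 6 ratio tests).

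Gclc and Gclm encode the catalytic and the modifier subunit of glutamate-cysteine ligase, the enzyme of the rate-limiting step of glutathione synthesis. Gclc rose with PA, and Gclm did not pass the test. Gclc (ENSRNOG00000006302, chromosome 8, 85059051 to 85097468, + strand) had 8.28, 8.93 and 9.35 FPKM in BSA, 11.9, 10.4 and 12.8 in PA, and 9.50, 8.97 and 9.12 in PA + C3G. All PA libraries were above those of both other groups, which overlapped each other. Gclc had a log2 fold change of 0.43 for PA versus BSA (SE 0.08, adjusted p = 0.00161) and −0.31 for PA + C3G versus PA (SE 0.08, adjusted p = 0.0235). PA + C3G and BSA differed by 0.12 (SE 0.08, adjusted p = 0.294, 95% interval −0.06 to 0.30). The call for C3G was lost without PA replicate 1 (−0.30) or 3 (−0.25) and without PA + C3G replicate 2 (−0.30) or 3 (−0.31), with an adjusted p of at most 0.0840, while the rise with PA was called in every alternative.

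Gclm (ENSRNOG00000013409, chromosome 2, 225827504 to 225847874, + strand) was lowest in PA + C3G. Its FPKM was 10.2, 11.8 and 11.1 in BSA, 9.45, 10.5 and 9.32 in PA, and 8.31, 8.43 and 9.05 in PA + C3G. For Gclm the log2 fold change was −0.15 for PA versus BSA (SE 0.09, adjusted p = 0.175) and −0.14 for PA + C3G versus PA (SE 0.09, adjusted p = 0.288). PA + C3G was lower than BSA by −0.30 (SE 0.09, adjusted p = 0.0249), with every PA + C3G library below every BSA library. This last call was lost without a filter on low values (−0.30, adjusted p = 0.053) and in 4 of the fits that left out 1 library, those without BSA replicate 2 (−0.26) or 3 (−0.30) and without PA + C3G replicate 1 (−0.28) or 2 (−0.29), where the adjusted p reached 0.0671.

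The ratio of Gclc to Gclm FPKM within a library, likewise added after the levels had been seen, set both subunits side by side. It was 0.809, 0.758 and 0.842 in BSA, 1.26, 0.998 and 1.38 in PA, and 1.14, 1.06 and 1.01 in PA + C3G. In BSA the modifier subunit was the higher of the pair in every library, and in PA + C3G the catalytic subunit was. The mean ratio was 1.51-fold higher in PA and 1.34-fold higher in PA + C3G than in BSA (each an exact permutation p of 0.1, two-sided, the smallest possible, and adjusted p = 0.12), whereas PA and PA + C3G overlapped (exact permutation p = 0.4, adjusted p = 0.4).

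**Figure D2:**
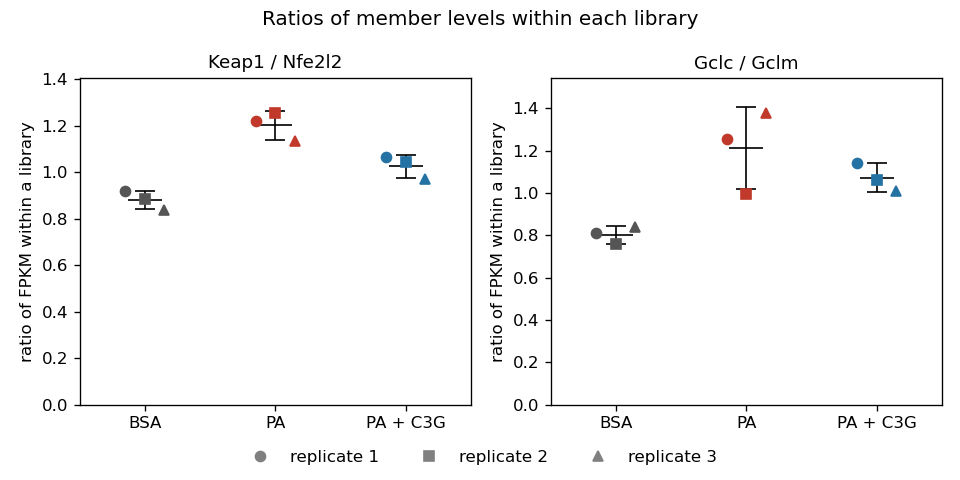
Ratio of Keap1 to Nfe2l2 FPKM and of Gclc to Gclm FPKM within each library (vertical axes, no unit, starting at 0) for the BSA, PA and PA + C3G groups, with bars for the mean ± SD (n = 3). The BSA libraries have the lowest ratios in both panels, at 0.840 to 0.920 for Keap1 over Nfe2l2 and 0.758 to 0.842 for Gclc over Gclm.

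Gsr (ENSRNOG00000014915, chromosome 16, 62197617 to 62241361, − strand), glutathione reductase, returns oxidised glutathione to its reduced form. Its FPKM was 38.0, 37.8 and 37.8 in BSA, 38.0, 37.3 and 40.0 in PA, and 35.7, 36.2 and 33.3 in PA + C3G. Gsr had a log2 fold change of 0.05 for PA versus BSA (SE 0.04, adjusted p = 0.411) and −0.09 for PA + C3G versus PA (SE 0.04, adjusted p = 0.162, 95% interval −0.19 to 0.0038). All PA + C3G libraries lay below all PA libraries, and under scaling to equal FPKM sums in place of TMM the latter difference was −0.18 with an adjusted p of 0.0166, a rescaling that moved the median of all genes by −0.09 in this comparison. A snoRNA gene on the opposite strand lies within Gsr in the authors' table, and whether reads were counted by strand is not given in the sources used here.

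Txnrd1 (ENSRNOG00000009088, chromosome 7, 26946125 to 26984400, − strand), the cytosolic thioredoxin reductase, was the most abundant member in every group and the one that fell with PA. Its FPKM was 71.3, 65.9 and 67.6 in BSA, 59.2, 54.4 and 60.1 in PA, and 57.5, 52.7 and 53.9 in PA + C3G. All BSA libraries were above all others, and PA and PA + C3G overlapped. The log2 fold change was −0.21 for PA versus BSA (SE 0.05, adjusted p = 0.00607) and −0.26 for PA + C3G versus BSA (SE 0.05, adjusted p = 0.00320), both called in all 19 alternatives. Between PA + C3G and PA it was −0.05 (SE 0.05, adjusted p = 0.580, 95% interval −0.16 to 0.07).

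Srxn1, sulfiredoxin, repairs over-oxidised peroxiredoxins. It was matched by its NCBI gene number, since the authors' table lists the row under a clone name (ENSRNOG00000031167, chromosome 3, 147609095 to 147632801, + strand). Its FPKM was 18.1, 14.7 and 14.6 in BSA, 19.7, 17.1 and 15.4 in PA, and 15.1, 13.7 and 16.8 in PA + C3G. The groups overlapped, and within BSA replicate 1 stood above the other libraries. The log2 fold change was 0.16 for PA versus BSA (SE 0.13, adjusted p = 0.338, 95% interval −0.14 to 0.46) and −0.16 for PA + C3G versus PA (SE 0.13, adjusted p = 0.448, 95% interval −0.46 to 0.14).

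Nqo1 (ENSRNOG00000012772, chromosome 19, 38422164 to 38437180, + strand), a quinone reductase often used as a reporter of NRF2 activity, was the lowest member in BSA and had the largest rise of the members with PA. Its FPKM was 2.51, 2.96 and 3.20 in BSA, 4.73, 5.24 and 5.52 in PA, and 5.29, 4.72 and 3.80 in PA + C3G. The BSA libraries lay below those of both other groups. Nqo1 had a log2 fold change of 0.86 for PA versus BSA (SE 0.16, adjusted p = 0.00133) and 0.73 for PA + C3G versus BSA (SE 0.16, adjusted p = 0.00514), and both were called in each of the 18 alternatives that tested the gene. PA + C3G and PA differed by −0.13 (SE 0.16, adjusted p = 0.621), with a 95% interval of −0.48 to 0.22. The counts behind these values were 265 to 580 per library.

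Hmox1 (ENSRNOG00000014117, chromosome 19, 14508616 to 14515456, + strand), heme oxygenase 1, breaks heme down to biliverdin, iron and carbon monoxide. Its FPKM was 4.37, 4.06 and 4.01 in BSA, 5.68, 3.27 and 5.32 in PA, and 4.80, 4.69 and 3.46 in PA + C3G. PA replicate 2 was the lowest of all libraries and PA replicates 1 and 3 were the highest. The log2 fold change for PA versus BSA was 0.22 (SE 0.21, adjusted p = 0.416, 95% interval −0.25 to 0.69), and without PA replicate 2 it was 0.43 with an adjusted p of 0.061. For PA + C3G versus PA it was −0.10 (SE 0.21, adjusted p = 0.783, 95% interval −0.57 to 0.37). With 257 to 607 counts per library Hmox1 had the widest intervals of the members, and the one for PA versus BSA holds both 0 and the difference seen for Keap1.

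**Figure D3:**
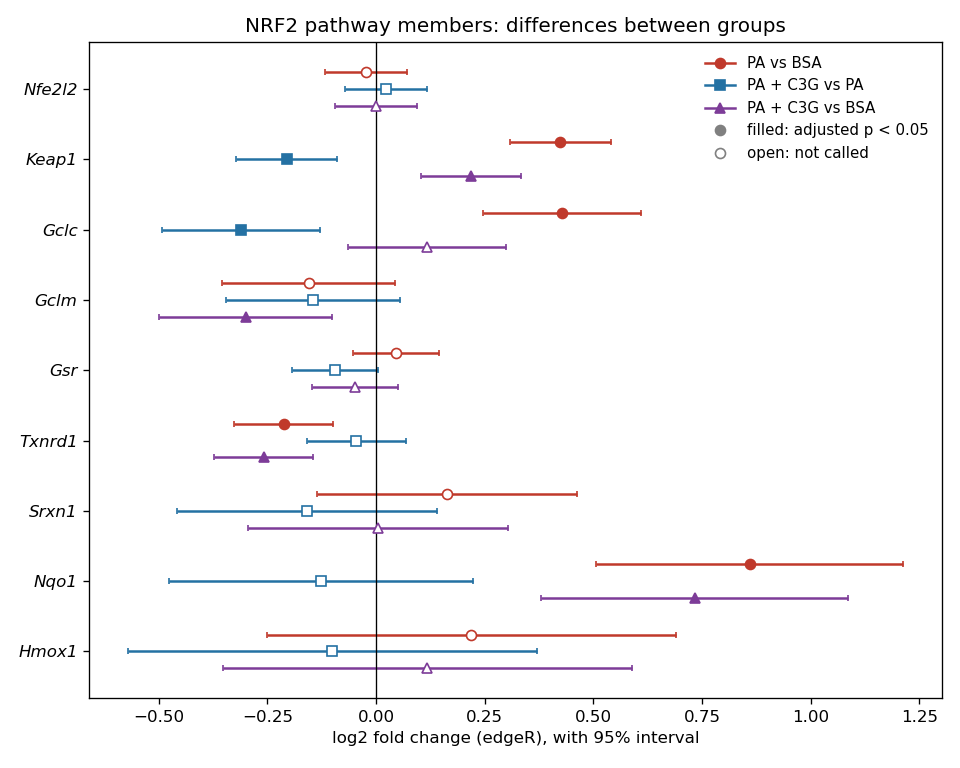
Log2 fold change of each member (horizontal axis, edgeR) with its 95% interval for PA versus BSA, PA + C3G versus PA and PA + C3G versus BSA, where filled symbols have an adjusted p under 0.05. Nqo1 has the largest difference, 0.86 for PA versus BSA, and Keap1 and Gclc are the members with filled symbols for PA + C3G versus PA, both to the left of 0.

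Relative to BSA, 4 members were called in PA + C3G (44.4%), with Keap1 and Nqo1 higher and Gclm and Txnrd1 lower, beside 36.9% of all genes, 19% higher and 17.9% lower. This split too moved with the scaling, from 2462 higher and 2321 lower to 1891 and 3038 under equal FPKM sums and to 1850 and 3091 with limma on log2(FPKM + 1). The median log2 fold change was 0.01, from −0.30 to 0.73. This comparison shares its libraries with the other 2, so the 3 sets of values are not independent of each other.

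In the order of levels, Txnrd1 and Gsr were the highest members in every group and did not overlap with each other or with the next gene. In BSA, Nfe2l2 came next (19.1 ± 0.21 FPKM), followed by Keap1 (16.8 ± 0.76) and Srxn1 (15.8 ± 2.0), which overlapped. In PA, Keap1 (22.2 ± 0.72) stood above Nfe2l2 (18.5 ± 0.51) without overlap, and in PA + C3G their libraries overlapped (18.8 ± 0.78 and 18.3 ± 0.53). Gclm was above Gclc in BSA without overlap, and the pair overlapped in PA and in PA + C3G. Hmox1 (4.15 ± 0.19) was above Nqo1 (2.89 ± 0.35) in BSA, and in PA and PA + C3G their libraries overlapped (SD, n = 3 throughout).

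The members did not share a single pattern over the 9 libraries. Pearson's r of log2(FPKM + 1) was highest for Keap1 with Nqo1 (0.80) and with Gclc (0.75), and lowest for Txnrd1 with Nqo1 (−0.76), where the 9 points share their 3 groups. Among all genes tested, the 3 most like Keap1 were Pus7l (r = 0.995), Entpd4 (0.984) and Secisbp2l (0.980). Those most like Gclc were Rpp40 (0.974), Fastkd1 (0.971) and Tmem97 (0.964), and those most like Txnrd1 were Kif20a (0.981), Shmt1 (0.979) and Supt20h (0.979). Nqo1 was nearest to Txnrd2 (0.982), Ccs (0.975) and Bicdl2 (0.974). Txnrd2 encodes the mitochondrial thioredoxin reductase and is on the list of further genes described below. Ccs encodes the copper chaperone of superoxide dismutase. These correlations are descriptions over 9 libraries, in which group differences alone give high values.

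Further genes of the pathway and of related functions were described from a list of 52, of which 48 had a row and 39 were tested. PA changed 24 of the 39 (61.5%), with 16 higher (41%) and 8 lower (20.5%), and a median log2 fold change of 0.08. All 24 remained called in every alternative that tested them. C3G changed 10 of them relative to PA (25.6%), 4 higher and 6 lower, with a median of −0.04, and 22 were called between PA + C3G and BSA (56.4%), 15 higher and 7 lower. Under equal FPKM sums the splits were 3 higher and 9 lower for PA + C3G versus PA, and 13 higher and 11 lower for PA + C3G versus BSA, the latter also with limma on log2(FPKM + 1). These counts, and those of the subgroups below, stand beside the shares of all genes tested that were called. The shares were 51% for PA versus BSA, 21.2% for PA + C3G versus PA and 36.9% for PA + C3G versus BSA.

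The regulators around NRF2 were the subgroup in which all 8 tested genes were called with PA, 6 higher and 2 lower, beside 51% of all genes. Maff, a small MAF partner, rose most. Its FPKM was 3.42, 2.82 and 3.55 in BSA, 9.59, 10.3 and 9.997 in PA, and 7.63, 6.37 and 6.70 in PA + C3G, so that the 3 groups were apart. For Maff the log2 fold change was 1.63 for PA versus BSA (SE 0.11, adjusted p = 2.23e-06) and −0.49 for PA + C3G versus PA (SE 0.11, adjusted p = 0.0131). Bach1, the repressor that competes for the same elements, had 5.70, 6.16 and 6.50 FPKM in BSA, 14.2, 10.2 and 13.8 in PA, and 7.03, 8.13 and 7.42 in PA + C3G. Bach1 had a log2 fold change of 1.08 for PA (SE 0.12, adjusted p = 4.69e-05) and −0.72 for PA + C3G versus PA (SE 0.12, adjusted p = 0.00295), the largest fall of the list with C3G, and both were called in all 19 alternatives. Cul3, the scaffold of the ligase that KEAP1 serves, moved the other way. Its FPKM was 30.3, 29.7 and 31.1 in BSA, 21.6, 20.2 and 20.2 in PA, and 24.6, 23.7 and 24.3 in PA + C3G. In log2 terms Cul3 differed by −0.53 for PA (SE 0.04, adjusted p = 4.04e-06) and 0.26 for PA + C3G versus PA (SE 0.04, adjusted p = 0.00219).

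The other 5 regulators are named here after their values had been seen. Sqstm1 (p62), which can bind KEAP1 and draw it into autophagy, was the most abundant of them. Its FPKM was 298, 293 and 291 in BSA, 569, 524 and 561 in PA, and 477, 444 and 462 in PA + C3G. Sqstm1 had a log2 fold change of 0.93 for PA (adjusted p = 1.18e-07) and −0.22 for PA + C3G versus PA (adjusted p = 0.0048), with the 3 groups apart. Mafg also rose with PA (0.57, adjusted p = 5.03e-06) and fell with C3G (−0.28, adjusted p = 0.0025). Mafk rose by 0.59 and Nfe2l1, which encodes the related factor NRF1, by 0.35, and Rbx1, the RING subunit of the ligase, fell (−0.33), while the values of the 3 for PA + C3G versus PA were −0.08, −0.05 and 0.11 and did not pass the test. Relative to BSA, all 8 regulators were called in PA + C3G, 6 higher and 2 lower, beside 36.9% of all genes. Bach1 was called there with an adjusted p of 0.0383 and missed the threshold in 9 of 19 alternatives.

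**Figure D4:**
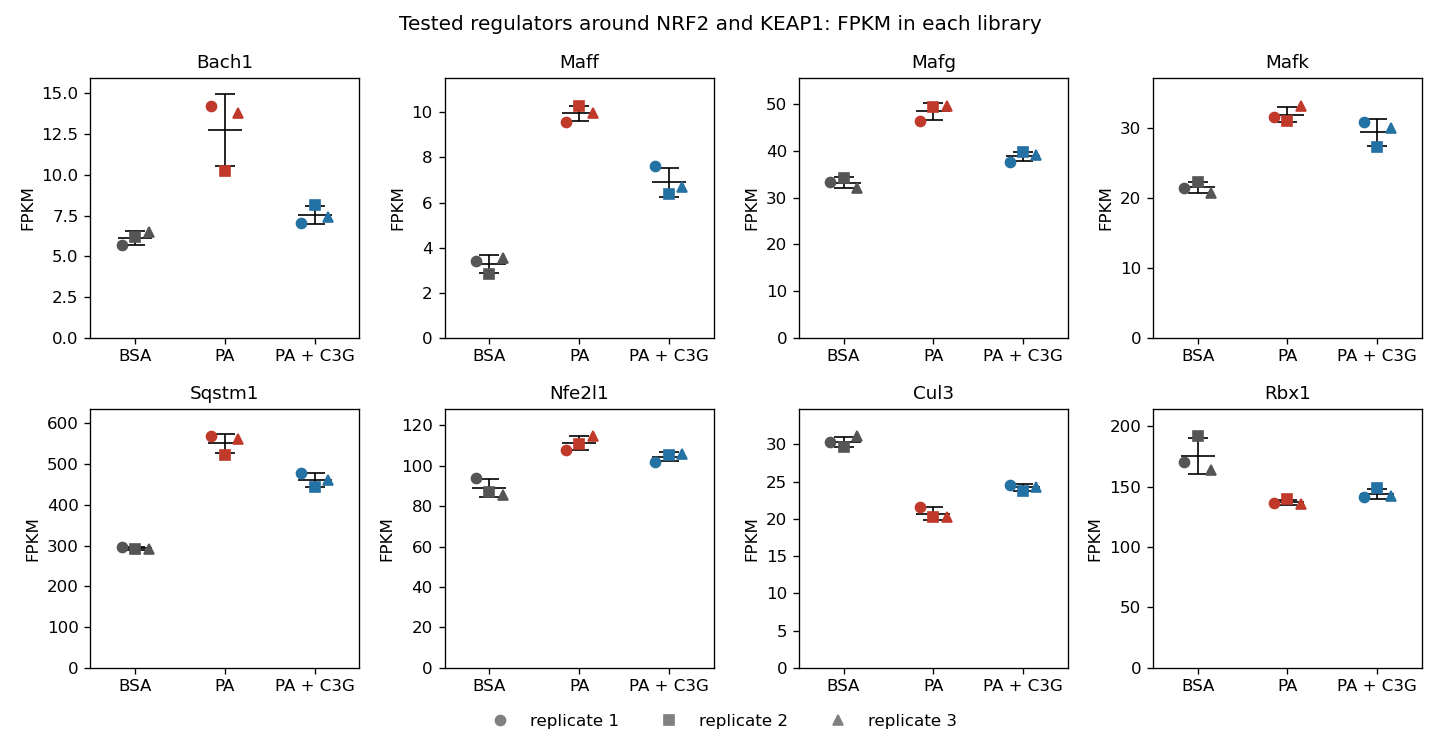
FPKM of the 8 tested regulators (vertical axes, each starting at 0) in every library of the 3 groups, with bars for the mean ± SD (n = 3). On FPKM as deposited, without TMM scaling, all 8 have their PA + C3G libraries between those of BSA and PA, with Cul3 and Rbx1 lowest in PA. For Mafk, Nfe2l1 and Rbx1 the difference between PA + C3G and PA was not called.

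Among genes of glutathione supply and use, 3 of 8 tested were called with PA. Gstm1, a glutathione S-transferase, rose by 0.92 on the log2 scale (adjusted p = 0.00249), from 2.08 ± 0.32 to 3.89 ± 0.36 FPKM, and Mgst1, a microsomal one, fell (−0.39, adjusted p = 0.00526). With C3G none of the 8 was called relative to PA in edgeR with TMM over all libraries. Under equal FPKM sums 2 were called lower, Abcc1 and Abcc4, the latter also without PA replicate 3, and Mgst1 was called higher with the replicate block and without PA + C3G replicate 2. Gstm1 stayed higher than BSA (0.94, adjusted p = 0.00353).

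Of the 6 thioredoxin and peroxiredoxin genes, 2 rose and 3 fell with PA. Txnip, the thioredoxin-binding protein whose transcription follows glucose, fell most, with 106, 65.6 and 99.2 FPKM in BSA, 9.50, 9.01 and 8.54 in PA, and 12.5, 10.4 and 11.7 in PA + C3G. Txnip had a log2 fold change of −3.30 for PA (SE 0.17, adjusted p = 2.92e-07) and 0.39 for PA + C3G versus PA (SE 0.16, adjusted p = 0.111). Txnrd2 rose by 0.48 with PA (adjusted p = 0.000144), opposite in sign to its cytosolic counterpart Txnrd1. Prdx1, an abundant peroxiredoxin, was the one gene of this subgroup called with C3G, at 252 ± 3.7 FPKM in BSA, 157 ± 7.6 in PA and 193 ± 19 in PA + C3G (0.33 on the log2 scale for PA + C3G versus PA, adjusted p = 0.00728).

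Of the 5 genes of NADPH supply, 3 rose and 1 fell with PA. Idh1, cytosolic isocitrate dehydrogenase, rose by 0.50 (adjusted p = 0.00104) and Taldo1, transaldolase, fell (−0.41, adjusted p = 0.000718). Tkt, transketolase, fell with C3G relative to PA (−0.28, adjusted p = 0.000542). Among 4 tested detoxifying enzymes, Ephx1, the microsomal epoxide hydrolase, rose from 7.16 ± 0.36 FPKM in BSA to 18.8 ± 3.1 in PA (1.42, adjusted p = 9.07e-06) and was 18.0 ± 1.7 in PA + C3G (1.39 versus BSA, adjusted p = 1.98e-05). Cbr1, a carbonyl reductase, fell with C3G (−0.43, adjusted p = 0.0185), a call lost without PA replicate 3 or PA + C3G replicate 2 or 3, and Pir was lower in PA + C3G than in BSA (−0.34, adjusted p = 0.0153), a call lost without BSA replicate 1.

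Heme and iron genes, the company of Hmox1, gave 1 rise and 1 fall among 6 tested with PA. Ftl1, annotated as the ferritin light chain, had 26.2, 35.7 and 27.8 FPKM in BSA, 48.4, 52.6 and 75.3 in PA, and 47.3, 43.2 and 41.9 in PA + C3G. For Ftl1 this was a log2 fold change of 0.999 with PA (adjusted p = 0.00073) and −0.37 for PA + C3G versus PA (adjusted p = 0.141). Its row lies on chromosome 5 (152325871 to 152326778) and stood below Fth1 (372 ± 30 FPKM in BSA). Whether this row is the ferritin light chain gene itself or a copy of it was not checked. Blvra, biliverdin reductase, fell with PA (−0.88, adjusted p = 0.00124) and was higher with C3G than with PA (0.56, adjusted p = 0.0337), a difference called in 10 of 19 alternatives. Of the last 2 genes, Osgin1, an oxidative stress-induced growth inhibitor, rose by 1.65 with PA (adjusted p = 5.6e-05), from 0.953 ± 0.12 to 2.96 ± 0.56 FPKM, and was 2.75 ± 0.37 in PA + C3G. Sesn2, a stress-induced sestrin, was called with C3G (0.31, adjusted p = 0.00999) and not with PA (−0.14, adjusted p = 0.106).

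**Figure D5:**
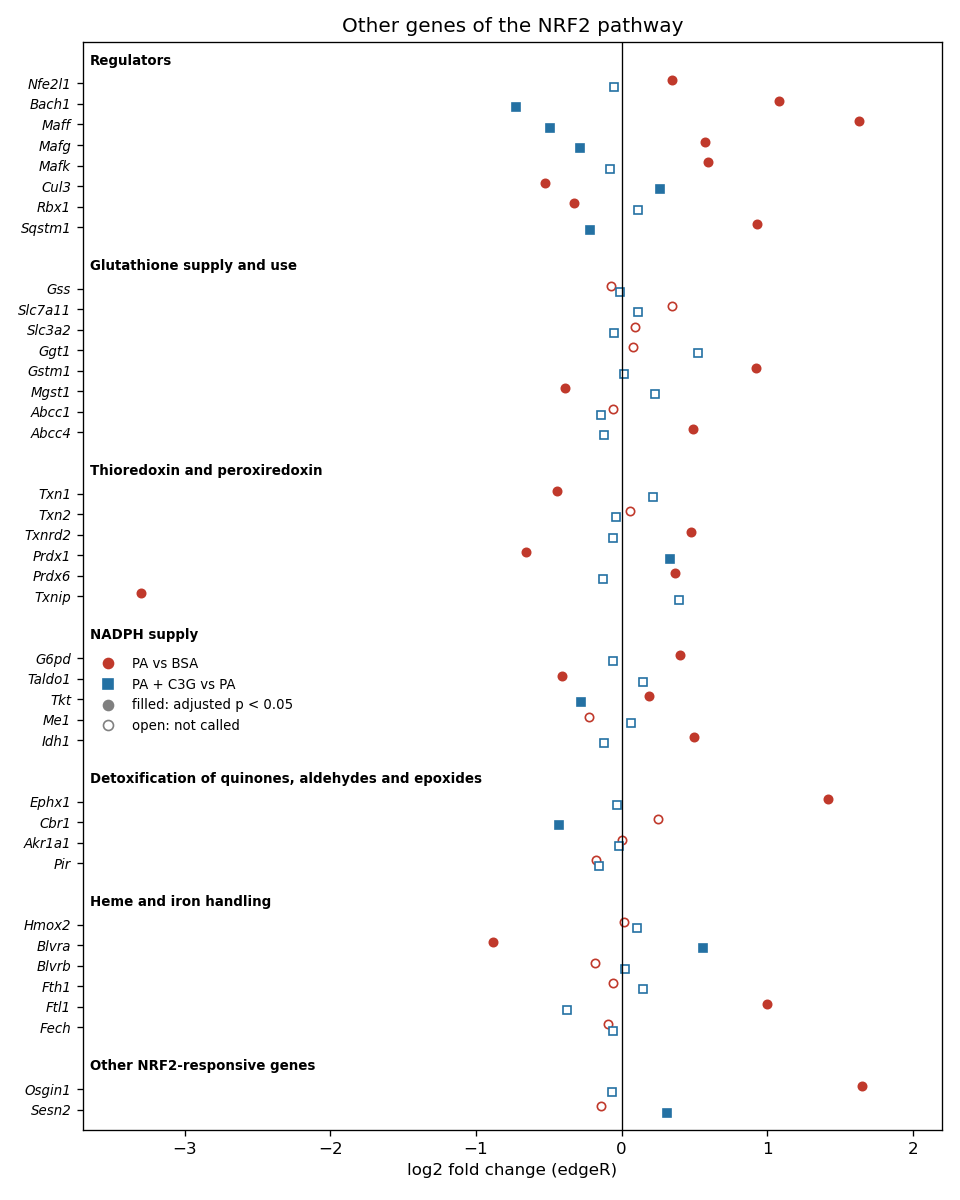
Log2 fold change (horizontal axis, edgeR) of the 39 further genes tested, by subgroup, for PA versus BSA (circles) and PA + C3G versus PA (squares), where filled symbols have an adjusted p under 0.05. All 8 regulators are filled for PA, 6 to the right and 2 to the left of 0, and Txnip lies farthest to the left at −3.30.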

How the data were processed

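RNA sequencing of 9 INS-1E libraries was analysed, 3 each for BSA, PA and PA + C3G, grouped by the submitters' labels. The sample titles call the groups control, palmitic acid treated and cyanidin-3-o-glucoside treated. These titles name neither BSA in the first group nor PA in the third. Polyadenylated RNA went into stranded paired-end libraries. The submitters' processing notes name cutadapt 1.9, HISAT2 2.0.4, StringTie 1.3.4d, DESeq2 and edgeR without their roles. The genome build is not given in the sources used here. Per gene, the authors deposited estimated counts without any normalization, and FPKM values, which are scaled to gene length and library size. Low counts pile up at multiples of 4 (2.44 times as many values at 4 as the mean of those at 3 and 5), so sampling error may be larger than the totals imply. The doses, the BSA of the control group and the presence of PA together with C3G come from the study's methods.

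The counts, already whole numbers, were tested with edgeR 4.0.16 (glmQLFit and glmQLFTest, TMM) in R 4.3.3 over all 9 libraries, for 12958 genes whose FPKM averaged 1 or more, with Benjamini-Hochberg adjustment. SE and 95% intervals come from that fit. The alternatives tried were a Wald test in DESeq2 1.42.0, its size factors in edgeR, rescaling to equal FPKM sums, a fit without the filter, a filter at a mean FPKM of 5, a fit of the compared groups alone, a block for the replicate number, limma 3.58.1 with pseudocounts of 1 and 0.1, counts divided by 4, and leaving out each library in turn. The edgeR procedure was also run on simulated counts, with far fewer genes changed than were called here for PA versus BSA. That run cannot tell how the scaling behaves in these data. No pair of libraries was a duplicate (at most 0.579% equal counts).

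The members, the wider list and the tests were chosen with earlier results of these data known. Named are all 9 members, in each subgroup of the wider list the called gene with the largest rise and the largest fall per comparison, and the 3 genes most correlated with each member called for PA versus BSA or PA + C3G versus PA. Mafg, Mafk, Sqstm1, Nfe2l1 and Rbx1, and the ratios, were added after the data were seen.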

Additional observations from a re-analysis of the deposited data

How the results depend on the processing

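For PA versus BSA the same 4 members were called in every alternative that tested them, and Nqo1 and Hmox1 were not tested at a mean FPKM of at least 5. For PA + C3G versus PA the number of members called ranged from 0 to 2 when 1 library was left out. It was 0 without PA + C3G replicate 3 and 1 without any other PA or PA + C3G library, so those 2 calls rest on the full set of libraries. For PA + C3G versus BSA the number was 3 to 4. Over all genes, the PA + C3G versus PA count fell from 2752 to 1718 without PA replicate 3.

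Signs that turned all belong to members that did not pass the test. Nfe2l2 for PA versus BSA was 0.0074 with scaling to equal FPKM sums. For PA + C3G versus PA, Nfe2l2 was −0.067 with that rescaling, −0.014 with limma at either pseudocount, and Hmox1 lay between −0.31 and 0.044 when 1 library was left out (0.034 without PA + C3G replicate 3). For PA + C3G versus BSA, Nfe2l2 was 0.0011 with no filter, 0.00016 with only the 2 groups and between −0.024 and 0.015 when 1 library was left out. Srxn1, at 0.01 for PA + C3G versus BSA, was −0.0017 with DESeq2, −0.055 with the rescaling, −0.0049 at a mean FPKM of at least 5, −0.050 and −0.053 with limma, −0.0073 with counts divided by 4, and between −0.078 and 0.106 when 1 library was left out. The cause was not tested.

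With the replicate number as a block, 4, 2 and 4 members were called in the 3 comparisons, the same numbers as without it, and 28 genes of the wider list for PA versus BSA. Correlations of same-numbered libraries' deviations from their group means lay between −0.047 and 0.105, and the main fit did not use the numbers. Some genes kept one order of replicates in every group. They were picked after the values had been seen, and the share of all genes that do so was not counted. From high to low, Gcg and Me1 ran 1, 3, 2 and Nkx6-1 ran 2, 3, 1, whereas Srxn1 and Hmox1 kept no common order. The block raised the number of all genes called with PA from 6614 to 6843, and with C3G relative to PA from 2752 to 3118. These values do not decide whether the numbers pair the samples.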
